A study of Mus musculus with 12 samples.

Results

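The motile cilia genes of the mouse spinal cord were followed in 12 libraries of messenger RNA from whole cords, from which no ependymal cells were isolated. Mice with loxP-flanked Ddx20 alleles (Ddx20flox/flox) had been crossed with the Plp-CreER line, whose Cre is driven from the Plp promoter of oligodendrocyte-lineage cells and becomes active after tamoxifen. The 4 groups were cKO mice at 4 weeks after tamoxifen, control mice at 4 weeks, cKO mice at 4.5 weeks and control mice at 4.5 weeks, with 3 mice each. The labels call the reference mice Control and do not give their alleles, nor the sex or age of any mouse. Genes were chosen by name: the axonemal dynein heavy chains (Dnah), the dynein intermediate chains (Dnai), the cilia and flagella associated proteins (Cfap), the radial spoke proteins (Rsph) and 9 single genes (Foxj1, Rfx2, Rfx3, Mcidas, Tekt1, Tekt4, Spag6, Hydin and Ccdc39). Of 56953 genes in the tables, 56 carried such a name. A level of at least 0.5 CPM (counts scaled to a library's adjusted total) in at least 3 libraries was asked for, and 49 genes met it. All 49 were among the 19278 genes tested.

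Motile cilia are the beating hairs by which ependymal cells, the lining of the central canal and the ventricles, move cerebrospinal fluid. Their core, the axoneme, is a ring of doublet microtubules around a central pair, with outer and inner dynein arms as motors and radial spokes that pass control signals from the central pair to the arms. Foxj1 is the forkhead factor that switches on genes of this machine, and the RFX factors act with it by binding the X-box, a palindromic element in promoters of cilium genes. In the spinal cord the central canal lining is the main site of such cilia, while most other cells there carry at most a single primary cilium, which lacks dynein arms and the central pair.

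The selection left out 7 genes. Mcidas, the starter of the multiciliated cell programme, stayed at or below 0.242 CPM in every library, and Rsph14, Rsph6a, Cfap221, Cfap73, Cfap157 and Cfap58 also fell short. Just inside the threshold, the third-highest library held 0.56 CPM of Spag6 and 0.565 CPM of Cfap77. Just outside it, the third-highest library held 0.465 CPM of Cfap157 and 0.415 CPM of Cfap58. Dnah17, Cfap53 and Cfap77 reached 0.5 CPM in no control library, so they entered the set through cKO libraries alone, and the counts are given with and without them. No Dnai symbol stood in the tables: the intermediate chains are listed under older names and are described with the other pathway genes. Spag6 stood on 2 lines, and the one with identifier ENSMUSG00000022783 is Spag6l in the GENCODE table and is called so here. Reads can be split between Spag6 and Spag6l, and between Rsph3a and Rsph3b, which are near-identical copies, so the share of each copy is uncertain. The libraries do not mark strand, so reads of an overlapping or antisense gene cannot be told apart from those of a member.

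The libraries held 33104560 to 47677267 counts. In libraries labelled cKO, Ddx20 itself was not reduced: it stood at 10.2, 11.1 and 9.9 CPM in cKO cords and 11, 9.78 and 11.1 CPM in control cords at 4 weeks, and at 12.4, 11.1 and 13.3 CPM in cKO cords and 9.16, 10.6 and 9.71 CPM in control cords at 4.5 weeks. The log2 fold change of Ddx20 was 0.33 ± 0.1 at 4.5 weeks (edgeR adjusted p = 0.0134), and the adjusted p was 0.0596 when control library 1 of that time was left out and 0.0627 when cKO library 3 was. A whole-gene count in whole cord includes reads outside the deleted part and from cells without the driver, so it does not check the labels, and the libraries are called cKO by label throughout. The groups were unbalanced in sex: Xist had 13563 and 14773 counts in cKO libraries 1 and 2 of 4 weeks, 0 to 3 counts in the other 4 libraries of that time, and 16090 to 30525 counts in all 6 libraries of 4.5 weeks. Markers of other cells moved with the groups. At 4.5 weeks the 12 oligodendrocyte markers summed to 10800 to 11800 CPM in cKO cords and 30400 to 30800 CPM in control cords, the 12 neuron markers to 3330 to 3540 CPM in cKO cords and 11600 to 12000 CPM in control cords, and the 12 microglia markers to 9890 to 11000 CPM in cKO cords and 522 to 560 CPM in control cords. At 4 weeks the oligodendrocyte markers summed to 14300 to 19300 CPM in cKO cords and 33300 to 35900 CPM in control cords, and the microglia markers to 1590 to 2740 CPM in cKO cords and 610 to 632 CPM in control cords. The part of this shift in the results on motile cilia genes was not tested. In whole cord, fewer cells of a type and less RNA per cell cannot be told apart.

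The X-box was looked for in the promoters of the members, since RFX factors bind it and Rfx2 and Rfx3 are members. RefSeq promoters (GRCm38.p6, 250 bases before to 50 after the transcript start) matched 39 of the 49 genes with 43 promoters, and each motif was searched on both strands. The full palindrome, GTNNCC and GGNNAC with 2 bases of any kind between them, stood in 6 of 43 member promoters (14%) and in 618 of 32851 promoters of all genes (1.88%). The half-site GTTGCC stood in 15 of the 43 (34.9%), against 12.5% of all promoters, and the forkhead core TGTTTAC in 3 of the 43 (6.98%), against 3.65%. The 6 palindromes are printed with their surroundings because their genes follow different patterns below. Capitals mark the palindrome, on the strand of the gene.
Cfap126: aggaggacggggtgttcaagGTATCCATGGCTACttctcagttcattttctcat
Cfap206: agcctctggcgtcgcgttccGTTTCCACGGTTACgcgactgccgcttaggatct
Rsph9: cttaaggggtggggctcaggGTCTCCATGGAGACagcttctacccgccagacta
Rfx2: tagagactGTAGCCGTGGAGACtg
Tekt4: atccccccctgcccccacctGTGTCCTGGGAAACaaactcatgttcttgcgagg
Cfap77: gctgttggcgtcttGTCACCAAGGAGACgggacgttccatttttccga
The windows lie at chr1:171122943-171122996 (plus strand) for Cfap126, chr4:34730196-34730249 (minus) for Cfap206, chr17:46144173-46144226 (minus) for Rsph9, chr17:56830959-56830982 (minus) for Rfx2, chr17:25471410-25471463 (plus) for Tekt4 and chr2:29055269-29055316 (minus) for Cfap77. The palindrome began 82 bases upstream of the start in Cfap126, 23 in Cfap206, 6 in Rsph9, 160 in Tekt4 and 236 in Cfap77, and at base 35 of the transcript in Rfx2. Of these genes, Cfap126, Cfap206 and Rsph9 were higher in cKO cords at both times, Rfx2 and Tekt4 passed the test at 4.5 weeks, and Cfap77 passed at neither. A match is a stretch of letters and was not tested as a bound site.

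Most motile cilia genes were higher in cKO cords by 4.5 weeks, and fewer had moved at 4 weeks. Differences were tested with edgeR's quasi-likelihood test, genes are called where the p adjusted over all genes (Benjamini and Hochberg) was below 0.05, and every log2 fold change below is cKO over control with its standard error. At 4 weeks 12 of the 49 genes were called higher and 3 lower. Over all genes tested 37.2% were called in that comparison, 20.1% higher and 17.2% lower, and of the 49 it was 30.6%, 24.5% higher and 6.12% lower. The count at 4 weeks, a share near the background, is no result about the set. At 4.5 weeks 32 were called higher and 7 lower, which is 65.3% and 14.3% of the 49, beside 33.3% and 32.6% of all genes and 65.9% called in either direction. Without Dnah17, Cfap53 and Cfap77, 11 of 46 genes were higher and 3 lower at 4 weeks (median log2 fold change 0.12), and 31 higher and 7 lower at 4.5 weeks (median 0.6). The median log2 fold change of the 49 was 0.15 at 4 weeks and 0.61 at 4.5 weeks, with medians of 0.007 and 0.021 over all genes. All 3 cKO libraries lay above all 3 controls in 17 genes at 4 weeks, where 24.1% of all genes did, and in 30 genes at 4.5 weeks, where 36.8% did. All 3 lay below the controls in 7 genes at each time, where 23.1% of all genes did at 4 weeks and 35.6% at 4.5 weeks. Without the same 3 genes 16 lay above at 4 weeks and 29 at 4.5 weeks. The sum of the 49 levels was 441, 404 and 420 CPM in cKO cords and 362, 360 and 357 CPM in control cords at 4 weeks, and 411, 400 and 402 CPM in cKO cords and 353, 365 and 345 CPM in control cords at 4.5 weeks. At 4 weeks the sum without Foxj1 was 349, 324 and 343 CPM in cKO cords and 330, 325 and 320 CPM in control cords, which overlapped. The 9 genes of the radial spokes and their ruler summed to 67.6, 64.9 and 71.1 CPM in cKO cords and 56.2, 54.8 and 53.8 CPM in control cords then. Cfap36 and Cfap97 together went the other way, with 114, 120 and 112 CPM in cKO cords and 125, 126 and 129 CPM in control cords. At 4.5 weeks the sum without Foxj1 was 365, 355 and 358 CPM in cKO cords and 320, 330 and 310 CPM in control cords, with no overlap.

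**Figure D1:**
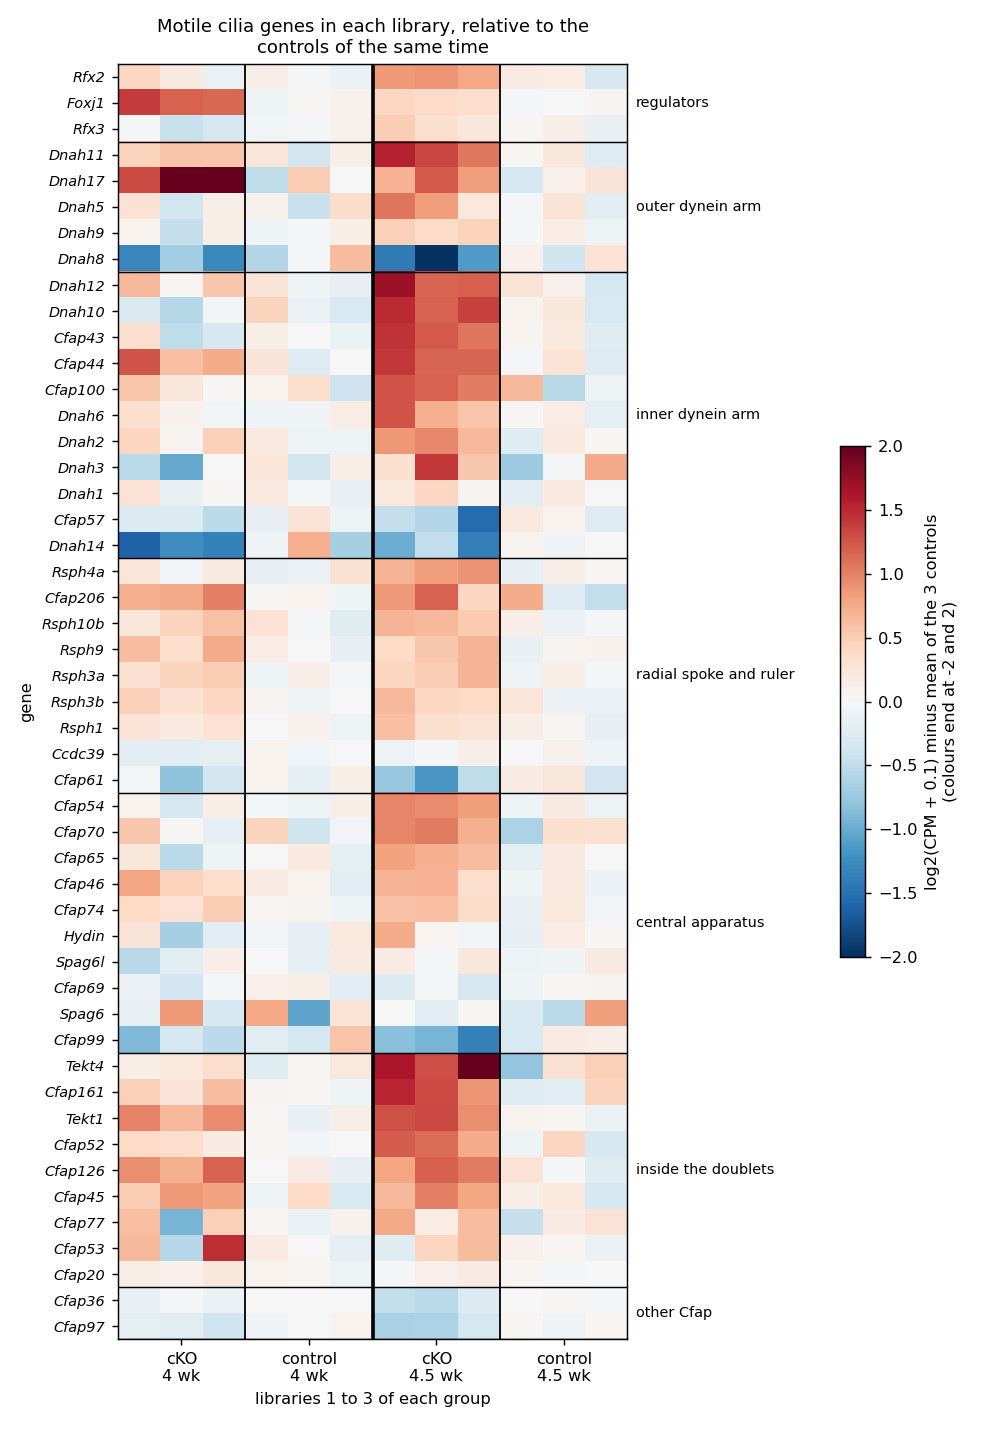
Heat map of the 49 motile cilia genes (grouped by role, down the page) in the 12 libraries (cKO and control at 4 weeks, then cKO and control at 4.5 weeks). Colour is log2(CPM + 0.1) minus the mean of the 3 controls of the same time, and the block of cKO libraries at 4.5 weeks is red in the 32 genes called higher. Foxj1 and Dnah17 are deeper red in the cKO libraries at 4 weeks than in those at 4.5 weeks, and Dnah8 and Dnah14 are blue in the cKO libraries of both times.

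Of the transcription factors, Foxj1 rose at both times and Rfx2 and Rfx3 at 4.5 weeks. Foxj1 stood at 92.1, 79.4 and 77.4 CPM in cKO cords and at 32.4, 35.3 and 36.9 CPM in control cords at 4 weeks. At 4.5 weeks it stood at 45.7, 44.8 and 43.9 CPM in cKO cords and at 33.4, 34.4 and 35.6 CPM in control cords. The groups did not overlap at either time, and the controls of both times held like levels, while the cKO libraries of 4 weeks were highest. The log2 fold change was 1.25 ± 0.073 at 4 weeks (adjusted p = 1.22e-07) and 0.38 ± 0.072 at 4.5 weeks (adjusted p = 0.000492). The cKO library of 4 weeks that, like its controls, lacked Xist counts held 77.4 CPM, above every control. It was the lowest cKO library of that time. The call of Foxj1 at 4 weeks was kept under all 24 alternative runs, with log2 fold changes of 1.15 to 1.3. One of these runs held a term for sex, read from Xist, and the part of sex beyond that term was not tested.

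Rfx2 stood at 5.99, 6.1 and 5.67 CPM in cKO cords and at 3.67, 3.63 and 2.6 CPM in control cords at 4.5 weeks, with no overlap (log2 fold change 0.85 ± 0.17, adjusted p = 0.000859). At 4 weeks it stood at 5.48, 4.62 and 3.71 CPM in cKO cords and 4.47, 4.03 and 3.76 CPM in control cords, which overlapped, and the value was 0.17 ± 0.17. Rfx3 stood at 21.7, 19.2 and 18.1 CPM in cKO cords and at 15.7, 16.7 and 13.9 CPM in control cords at 4.5 weeks (0.35 ± 0.12, adjusted p = 0.0183). In that comparison every cKO library was above every control, while at 4 weeks Rfx3 held 13.7, 10.2 and 11 CPM in cKO cords and 13.4, 13.6 and 14.8 CPM in control cords (-0.26 ± 0.12, adjusted p = 0.106). The call of Rfx3 at 4.5 weeks was lost without control library 3 or without cKO library 1 of that time, with the highest adjusted p at 0.087.

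**Figure D2:**
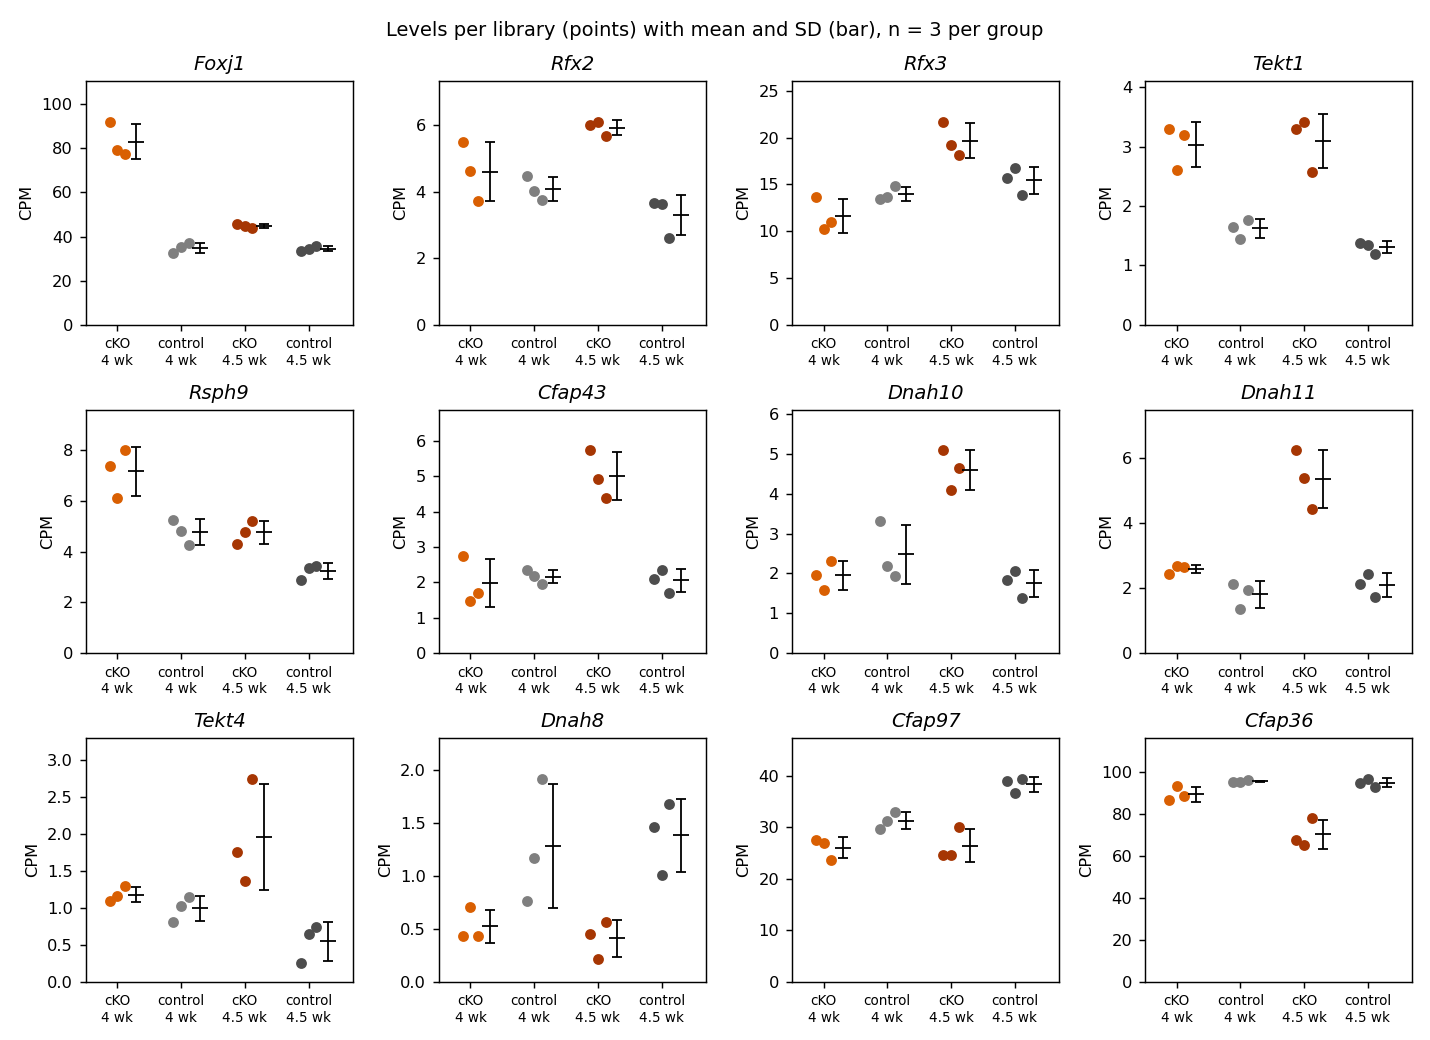
Levels in CPM (vertical axis, from 0) of 12 motile cilia genes in each library, with the mean and SD of the 3 libraries of a group beside the points (cKO and control at 4 weeks, then cKO and control at 4.5 weeks). Foxj1 is highest in the cKO cords of 4 weeks (77.4 to 92.1 CPM), Dnah10 and Cfap43 stand apart in the cKO cords of 4.5 weeks alone, and Dnah8, Cfap97 and Cfap36 lie lower there than in controls.

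The outer dynein arms, which set the beat frequency, had 3 of 4 heavy chains higher and 1 lower at 4.5 weeks, and 0 higher and 1 lower at 4 weeks. These counts leave out Dnah17, which entered the set through cKO libraries and was called higher at both times. The shares were 75% higher and 25% lower at 4.5 weeks, beside 33.3% and 32.6% of all genes. At 4 weeks they were 0% and 25%, beside 20.1% and 17.2% of all genes. Dnah11, the chain of the proximal part of the arm, stood at 6.23, 5.37 and 4.43 CPM in cKO cords and at 2.13, 2.44 and 1.72 CPM in control cords at 4.5 weeks. Every cKO library held more than every control, and the log2 fold change was 1.35 ± 0.2 (adjusted p = 6.71e-05), while at 4 weeks it was 0.51 ± 0.21 (adjusted p = 0.0717). Its partner of the distal part, Dnah9, rose by 0.44 ± 0.16 at 4.5 weeks (adjusted p = 0.0281), with 6.58, 6.16 and 6.51 CPM in cKO cords and 4.57, 5.24 and 4.39 CPM in control cords. Dnah5, the heavy chain with which both partners assemble, held 9.21, 7.77 and 5.02 CPM in cKO cords and 4.17, 5.16 and 3.72 CPM in control cords at 4.5 weeks. One cKO library of Dnah5 lay inside the control range (0.76 ± 0.26, adjusted p = 0.0218). The calls of Dnah5 and Dnah9 were lost when control library 1 or 3 or cKO library 1 of 4.5 weeks was left out, that of Dnah5 also without cKO library 2 and that of Dnah9 without cKO library 3. The highest adjusted p without 1 or 2 libraries was 0.108 for Dnah5 and 0.095 for Dnah9.

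The heavy chains known mainly from sperm went both ways at low levels. Dnah8 held 0.447, 0.219 and 0.561 CPM in cKO cords and 1.46, 1.01 and 1.68 CPM in control cords at 4.5 weeks, and 0.43, 0.706 and 0.431 CPM in cKO cords and 0.765, 1.17 and 1.92 CPM in control cords at 4 weeks. Its groups did not overlap at either time, and it fell by 1.75 ± 0.42 (adjusted p = 0.00236) and by 1.29 ± 0.41 (adjusted p = 0.0255) on the log2 scale. Dnah17 held 0.774, 1.31 and 1.64 CPM in cKO cords and 0.148, 0.4 and 0.256 CPM in control cords at 4 weeks. At 4.5 weeks it held 0.522, 0.794 and 0.589 CPM in cKO cords and 0.201, 0.311 and 0.358 CPM in control cords, with no overlap at either time (2.23 ± 0.41, adjusted p = 0.00118, at 4 weeks, and 1.11 ± 0.41, adjusted p = 0.0307, at 4.5 weeks). Dnah17 had to be high in cKO libraries to enter the set, and its call at 4.5 weeks was lost without control library 1 or 2 or cKO library 2 of that time. Dnah8 was no longer called at 4 weeks when control library 3 of that time (adjusted p = 0.138), cKO library 1 (0.0623) or cKO library 3 (0.0883) was left out.

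The inner dynein arms, which shape the bend, had 7 of 11 genes higher and 2 lower at 4.5 weeks, and 1 each way at 4 weeks. The shares were 63.6% higher and 18.2% lower at 4.5 weeks, beside 33.3% and 32.6% of all genes. At 4 weeks the 9.09% each way were below the 20.1% and 17.2% of all genes. Dnah10, a heavy chain of inner arm dynein f, stood at 5.09, 4.08 and 4.63 CPM in cKO cords and at 1.83, 2.05 and 1.39 CPM in control cords at 4.5 weeks (1.39 ± 0.24, adjusted p = 0.000178). At 4 weeks it stood at 1.95, 1.59 and 2.31 CPM in cKO cords and at 3.31, 2.18 and 1.94 CPM in control cords (-0.35 ± 0.24, adjusted p = 0.276). The groups were apart at the later time and overlapped at the earlier one. Cfap43 and Cfap44, known from algae and ciliates as the tether of the same dynein, are given next. Cfap44 stood at 9.37, 5.88 and 6.51 CPM in cKO cords and at 4.61, 3.2 and 3.84 CPM in control cords then (0.9 ± 0.2, adjusted p = 0.00441), and at 12.9, 10.8 and 10.8 CPM in cKO cords and 4.69, 5.81 and 3.94 CPM in control cords at 4.5 weeks (1.26 ± 0.2, adjusted p = 0.000116). Cfap43 held 2.75, 1.49 and 1.7 CPM in cKO cords and 2.34, 2.18 and 1.97 CPM in control cords at 4 weeks, and 5.74, 4.93 and 4.38 CPM in cKO cords and 2.11, 2.36 and 1.7 CPM in control cords at 4.5 weeks. Its groups separated at 4.5 weeks only (1.29 ± 0.23, adjusted p = 0.00027, and -0.13 ± 0.23 at 4 weeks), and the difference between the times was itself called, as given below.

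Of the inner arm genes, Dnah14 and Cfap57 were lower. Dnah14, placed with the inner arms by its sequence, held 0.229, 0.328 and 0.296 CPM in cKO cords and 0.864, 1.57 and 0.537 CPM in control cords at 4 weeks, with no overlap (-1.77 ± 0.41, adjusted p = 0.00509). At 4.5 weeks it held 0.472, 0.712 and 0.337 CPM in cKO cords and 1.1, 0.986 and 1.03 CPM in control cords (-1.03 ± 0.39, adjusted p = 0.0321). Cfap57, an adaptor of inner arms, fell by 0.87 ± 0.29 at 4.5 weeks (adjusted p = 0.0173), with 1.17, 1.07 and 0.505 CPM in cKO cords and 1.91, 1.76 and 1.37 CPM in control cords. Dnah1, another inner arm heavy chain, overlapped between the groups at both times (0.06 ± 0.17 at 4 weeks and 0.23 ± 0.17 at 4.5 weeks). The call of Dnah14 at 4.5 weeks was lost without any 1 of control libraries 1, 2 and 3 or of cKO libraries 1 and 3 of that time, and that of Cfap57 without control library 1 or cKO library 3 of that time. Their highest adjusted p over all alternatives was 0.155 for Dnah14 and 0.261 for Cfap57.

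The radial spokes and the ruler that spaces them had 7 of 9 genes higher and 1 lower at 4.5 weeks, and 4 higher and none lower at 4 weeks. The shares were 77.8% higher and 11.1% lower at 4.5 weeks, beside 33.3% and 32.6% of all genes. At 4 weeks 44.4% were higher, beside 20.1% of all genes, of which 17.2% were lower. Rsph9, a spoke head protein, stood at 7.37, 6.11 and 7.99 CPM in cKO cords and at 5.26, 4.8 and 4.25 CPM in control cords at 4 weeks (0.59 ± 0.15, adjusted p = 0.00764). At 4.5 weeks it stood at 4.3, 4.76 and 5.22 CPM in cKO cords and at 2.89, 3.37 and 3.45 CPM in control cords (0.56 ± 0.15, adjusted p = 0.00537). The groups were apart at both times, and both groups were lower at 4.5 weeks. Rsph4a, another head protein, stood at 3.65, 4.11 and 4.29 CPM in cKO cords and at 2.01, 2.44 and 2.33 CPM in control cords at 4.5 weeks (0.83 ± 0.18, adjusted p = 0.00109), while its groups overlapped at 4 weeks (0.11 ± 0.18). The stalk protein Rsph3a rose by 0.42 ± 0.1 at 4 weeks (adjusted p = 0.00638) and by 0.54 ± 0.1 at 4.5 weeks (adjusted p = 0.000431), with 18.8, 19.6 and 22.3 CPM in cKO cords and 13, 15.3 and 13.5 CPM in control cords at 4.5 weeks. Its copy Rsph3b was higher by 0.4 ± 0.11 (adjusted p = 0.0143) and 0.48 ± 0.11 (adjusted p = 0.00207) at 4 and 4.5 weeks, and its call at 4 weeks was lost without control library 2 of that time (highest adjusted p 0.0882). Cfap61, at the base of the spokes, fell by 0.87 ± 0.27 at 4.5 weeks (adjusted p = 0.0127), with 1.12, 0.821 and 1.35 CPM in cKO cords and 2.21, 2.33 and 1.48 CPM in control cords. Without cKO library 2 of that time the call of Cfap61 was lost, and its highest adjusted p over the alternatives was 0.347. Cfap206, at the base of a spoke, had adjusted p-values of 0.0498 at 4 weeks and 0.0448 at 4.5 weeks, and its calls were lost under 15 of 24 alternatives at each time. The ruler Ccdc39 was not called at either time (-0.21 ± 0.098 at 4 weeks and -0.01 ± 0.097 at 4.5 weeks).

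The central apparatus, which coordinates the arms through the spokes, had 5 of 10 genes higher and 1 lower at 4.5 weeks, and 2 higher at 4 weeks. The shares were 50% higher and 10% lower at 4.5 weeks, beside 33.3% and 32.6% of all genes. At 4 weeks the 20% higher were near the 20.1% of all genes, of which 17.2% were lower. Cfap54 stood at 8.17, 8.02 and 7.38 CPM in cKO cords and at 3.87, 4.67 and 3.81 CPM in control cords at 4.5 weeks (0.93 ± 0.15, adjusted p = 0.000137), and at 4.19, 3.1 and 4.39 CPM in cKO cords and 3.9, 3.69 and 4.4 CPM in control cords at 4 weeks (-0.04 ± 0.16). The later groups were apart and the earlier ones overlapped. Cfap74 and Cfap46 were higher at both times: Cfap74 by 0.4 ± 0.12 (adjusted p = 0.0181) and 0.52 ± 0.12 (adjusted p = 0.0019). Cfap46 was higher by 0.55 ± 0.17 (adjusted p = 0.0206) and 0.58 ± 0.16 (adjusted p = 0.00677). At 4 weeks the call of Cfap74 was lost without control or cKO library 3 (highest adjusted p 0.072) and that of Cfap46 without control library 3 or cKO library 1 (highest adjusted p over all alternatives 0.29). Cfap65 rose at 4.5 weeks by 0.72 ± 0.18 (adjusted p = 0.00341), with 9.56, 8.95 and 8.31 CPM in cKO cords and 4.77, 6.17 and 5.35 CPM in control cords. Cfap99 fell then by 1.16 ± 0.33 (adjusted p = 0.00711), with 0.646, 0.602 and 0.421 CPM in cKO cords and 0.979, 1.4 and 1.37 CPM in control cords, which did not overlap. Hydin, the giant protein of the central pair, and Cfap69, the gene of this class with the highest level per kilobase, were called at neither time. Cfap69 held 15.3, 18.2 and 14.7 CPM in cKO cords and 17.5, 19 and 19.2 CPM in control cords at 4.5 weeks (-0.21 ± 0.12), and Hydin 3.97, 2.41 and 2.25 CPM in cKO cords and 2.06, 2.59 and 2.37 CPM in control cords (0.3 ± 0.27).

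Of the 9 genes whose proteins lie inside the doublets, 6 were higher at 4.5 weeks and 3 at 4 weeks, and none was lower. The shares higher were 66.7% at 4.5 weeks and 33.3% at 4 weeks, beside 33.3% and 20.1% of all genes. Over all genes 32.6% were lower at 4.5 weeks and 17.2% at 4 weeks. Tekt1, a tektin filament protein, stood at 3.3, 2.6 and 3.2 CPM in cKO cords and at 1.65, 1.45 and 1.77 CPM in control cords at 4 weeks (0.9 ± 0.18, adjusted p = 0.002). At 4.5 weeks it stood at 3.3, 3.42 and 2.58 CPM in cKO cords and at 1.38, 1.35 and 1.19 CPM in control cords (1.25 ± 0.18, adjusted p = 5.08e-05). Each cKO library held more than every control at both times. Cfap126, known as Flattop, stood at 5.16, 4.42 and 6.14 CPM in cKO cords and at 2.67, 2.98 and 2.35 CPM in control cords at 4 weeks, and was higher by 0.97 ± 0.19 (adjusted p = 0.00166) and, at 4.5 weeks, by 1.04 ± 0.19 (adjusted p = 0.000358). Tekt4 had the largest log2 fold change of the 49 genes at 4.5 weeks, 1.83 ± 0.36 (adjusted p = 0.000644), with 1.76, 1.37 and 2.75 CPM in cKO cords and 0.251, 0.648 and 0.739 CPM in control cords. At 4 weeks Tekt4 held 1.09, 1.16 and 1.29 CPM in cKO cords and 0.814, 1.02 and 1.15 CPM in control cords, so the controls of 4.5 weeks were the lowest libraries of all. Cfap20, an inner junction protein found in all cilia, held 21.8, 24 and 25.3 CPM in cKO cords and 23, 21.9 and 22.5 CPM in control cords at 4.5 weeks and was called at neither time (0.15 ± 0.073 at 4 weeks and 0.08 ± 0.074 at 4.5 weeks).

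The remaining genes, Cfap36 and Cfap97, were lower. Cfap36, a binder of the small GTPase Arl3 that is also found in primary cilia, stood at 67.3, 65.3 and 78.1 CPM in cKO cords and at 94.8, 96.7 and 92.6 CPM in control cords at 4.5 weeks (-0.43 ± 0.064, adjusted p = 5.47e-05), and at 86.4, 93 and 88.2 CPM in cKO cords and 95.3, 95.1 and 95.8 CPM in control cords at 4 weeks (-0.1 ± 0.063). Cfap97 stood at 24.5, 24.6 and 30.1 CPM in cKO cords and at 38.9, 36.6 and 39.4 CPM in control cords at 4.5 weeks (-0.54 ± 0.089, adjusted p = 0.000148). At 4 weeks it stood at 27.4, 27 and 23.6 CPM in cKO cords and at 29.7, 31.1 and 32.9 CPM in control cords (-0.26 ± 0.089, adjusted p = 0.0342). Neither gene overlapped between the groups at either time. Cfap97 was no longer called at 4 weeks when control library 2 (adjusted p = 0.0684) or 3 (0.115) of that time or cKO library 2 (0.0501) or 3 (0.14) was left out, and with the replicate numbers as a block (0.0513).

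The genes also differed in level. Per kilobase of exon (GENCODE M21 lengths), the mean over the 6 controls was 34.6 CPM for Cfap36, 13.2 for Foxj1, 6.74 for Cfap97, 5.48 for Cfap20, 4.55 for Rsph3a and 4.29 for Rsph3b. The neighbours Rsph3a and Rsph3b are copies and cannot be ranked. At the other end stood Dnah8 at 0.0497, Dnah3 at 0.0289 and Dnah17 at 0.0173 CPM per kilobase. Of the 49, 40 reached 0.5 CPM in all 12 libraries. Of the 25 genes with a mean of at least 3 CPM, 19 were higher and 2 lower at 4.5 weeks, and of the 24 below that mean 13 were higher and 5 lower. These are 76% and 8%, and 54.2% and 20.8%, beside 33.3% higher and 32.6% lower of all genes.

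The cKO effect differed between the times in 13 genes, tested as the effect at 4.5 weeks minus the effect at 4 weeks. Of the 49, 11 were called higher and 2 lower (26.5%), where 40.7% of all genes were called, 18.7% higher and 21.9% lower. The median difference was 0.32 in the 49 and -0.025 over all genes. Among the called genes Dnah10 had the largest, 1.74 (adjusted p = 0.00111), followed by Tekt4 with 1.58 (adjusted p = 0.0242), Cfap43 with 1.42 (adjusted p = 0.00374) and Cfap54 with 0.97 (adjusted p = 0.00316). Rfx3 followed the same direction with 0.62 (adjusted p = 0.0107) and Rfx2 with 0.67 (adjusted p = 0.0437). Foxj1 went the other way, with -0.87 (adjusted p = 2.59e-05), and so did Cfap36 with -0.33 (adjusted p = 0.00962). Foxj1 was thus less raised at 4.5 weeks, the time at which more of the 49 genes were called higher. More of all genes were called higher then too, 33.3% beside 20.1% at 4 weeks. The calls of Foxj1, Rfx3, Dnah10, Cfap43 and Cfap54 were kept under all 23 alternatives, and the other 8 were lost under at least 1. Tekt4 lost its call without control library 3 of 4 weeks or cKO library 3 of 4.5 weeks (highest adjusted p 0.119), Cfap65 without control library 2 of 4 weeks (0.0779), and Rfx2 without any 1 of 8 libraries (0.104). With a term for sex 6 of the 13 calls were made, where 32% of all genes were called. Without control library 3 of 4 weeks 8 were made and without cKO library 3 of 4 weeks 8, where 38.3% and 36.4% of all genes were called.

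**Figure D3:**
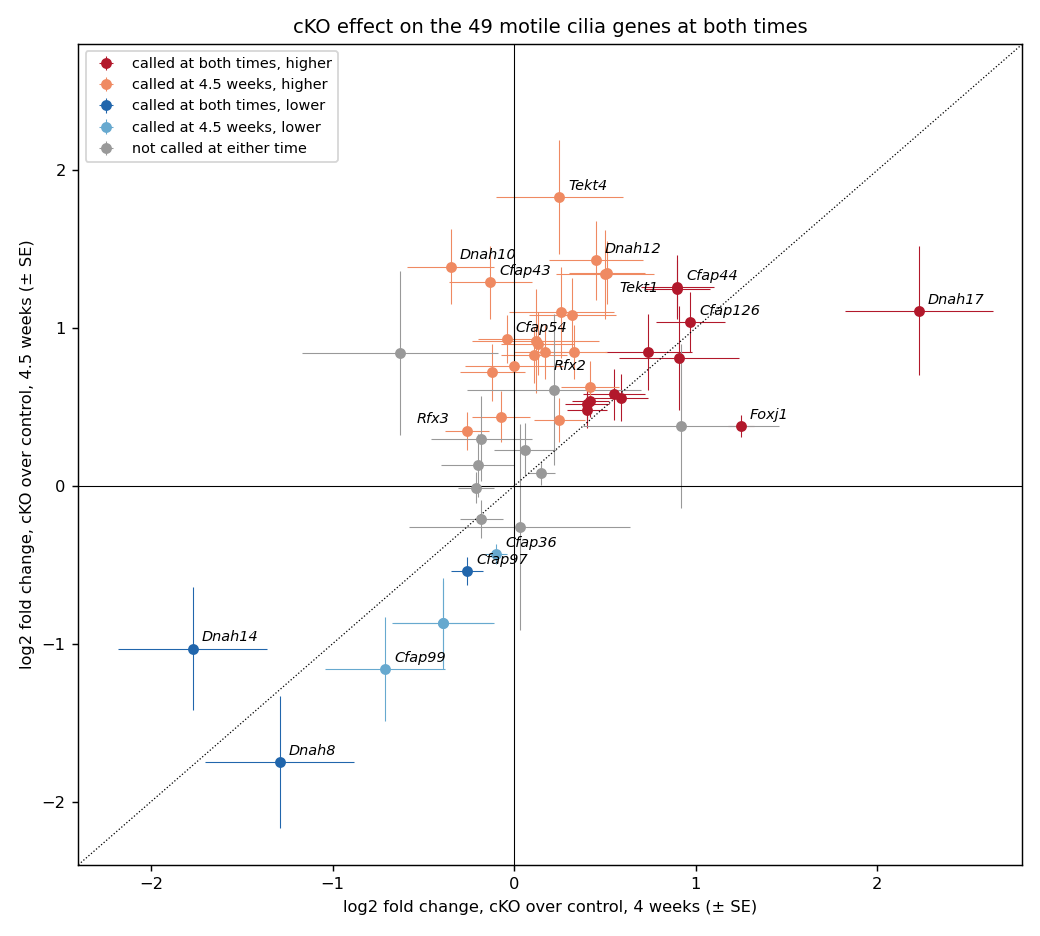
Log2 fold change of cKO over control at 4.5 weeks (vertical axis) against that at 4 weeks (horizontal axis) for the 49 genes, with standard errors as bars, colours for the calls and a dotted line of equal effects. Most points lie above the dotted line, Foxj1 and Dnah17 lie below it, and Dnah10 and Cfap43 lie near 0 or left of it at 4 weeks and above 1 at 4.5 weeks.

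Between the times within a genotype, 16 of the 49 genes were higher and 6 lower in cKO cords of 4.5 weeks than in cKO cords of 4 weeks (44.9%), where 56% of all genes were called, 27.2% higher and 28.8% lower. Dnah12, an inner arm heavy chain, was higher by 1.58 (adjusted p = 0.000161) and Cfap43 by 1.34 (adjusted p = 0.000272), while Foxj1 was lower by 0.89 on the log2 scale in the later cords (adjusted p = 4.5e-07). In control cords 1 gene was higher (Cfap97, 0.29, adjusted p = 0.0389) and 2 were lower (Rsph1, -0.6, adjusted p = 0.0148, and Rsph9, -0.56, adjusted p = 0.0242) at 4.5 weeks than at 4 weeks, where 16.7% of all genes were called, 9.53% higher and 7.21% lower (6.12% of the 49 were called). Time, the deposited table and sex differ together in the controls. The 3 control calls were gone with a term for sex, where 0% of all genes were called. They were also gone without control library 1 or 2 of 4 weeks, where 6.66% and 7.43% of all genes were called. Without control library 2 or 3 of 4.5 weeks 1 was left, where 7.75% and 10.5% of all genes were called.

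Other genes of the motile axoneme, taken from lists that leave out the members, were called higher more often than lower at 4.5 weeks. Of 57 further axonemal genes 25 were higher and 8 lower at 4.5 weeks (median log2 fold change 0.67), and 9 were higher and none lower at 4 weeks (median 0.18). The shares called higher were 43.9% at 4.5 weeks, with 33.3% over all genes, and 15.8% at 4 weeks, with 20.1% over all genes. Drc7, of the nexin-dynein regulatory complex, stood at 4.64, 5.78 and 6.76 CPM in cKO cords and at 1.38, 1.2 and 1.41 CPM in control cords at 4 weeks (2.1 ± 0.21, adjusted p = 8.99e-06), and at 5.89, 6.1 and 5.78 CPM in cKO cords and 1.33, 1.89 and 1.12 CPM in control cords at 4.5 weeks. Its groups were far apart at both times. Ttll9, a polyglutamylase of axonemal tubulin, was higher at 4 weeks by 1.83 ± 0.21 (adjusted p = 2.76e-05). Tekt5, a tektin known mainly from sperm, was lower at 4.5 weeks, with 6.38, 10.5 and 8.5 CPM in cKO cords and 27.4, 28.1 and 31.6 CPM in control cords (-1.78 ± 0.16, adjusted p = 6.06e-07).

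Factors that assemble and dock the dynein arms had 10 of 28 genes higher and 3 lower at 4.5 weeks and 3 higher at 4 weeks, which is 35.7% higher at 4.5 weeks and 10.7% at 4 weeks, near or below the 33.3% and 20.1% of all genes. Ccdc114, a docking protein of the outer arm, stood at 11.1, 10.4 and 8.42 CPM in cKO cords and at 3.54, 3.61 and 3.36 CPM in control cords at 4.5 weeks (1.51 ± 0.15, adjusted p = 1.32e-06), and Dnaaf3, a cytoplasmic assembly factor, was higher by 1.92 ± 0.25 (adjusted p = 1.67e-05). Of the 16 genes that are listed under older names, 4 were higher and 1 lower at 4.5 weeks, and 5 higher and 1 lower at 4 weeks. The 25% higher at 4.5 weeks is below the 33.3% of all genes, and the 31.2% at 4 weeks is above the 20.1%. The share lower was 6.25% at each time, beside 32.6% of all genes at 4.5 weeks and 17.2% at 4 weeks. The outer arm intermediate chains differed within this list. Dnaic2 was higher at both times, by 0.55 ± 0.13 (adjusted p = 0.00527) and 0.98 ± 0.13 (adjusted p = 2e-05), while Dnaic1 fell by 0.63 ± 0.17 at 4 weeks (adjusted p = 0.0124) and was not called at 4.5 weeks (-0.25 ± 0.17). The call of Dnaic1 was lost without control library 3 or cKO library 2 of 4 weeks (highest adjusted p 0.0891). Wdr66, at the base of the spokes, was higher by 1.61 ± 0.22 at 4.5 weeks (adjusted p = 3.42e-05).

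The genes that start multiciliation were low and not called. Gmnc held at most 0.774 CPM and Deup1 at most 0.602 CPM in any library, and Ccno held 0.459, 1.21 and 0.942 CPM in cKO cords and 0.568, 0.461 and 0.23 CPM in control cords at 4 weeks (1.05 ± 0.4, adjusted p = 0.0586). Of the 15 tested genes of this list 6 were higher and 1 lower at 4.5 weeks, and 3 higher and 2 lower at 4 weeks. The 40% higher at 4.5 weeks and 20% at 4 weeks are near the 33.3% and 20.1% of all genes. The called genes with the smallest p also work outside multiciliated cells: Rfx1 (0.48 ± 0.095, adjusted p = 0.00191, and 1.01 ± 0.096, adjusted p = 9.03e-07), Tfdp1, a dimer partner of the cell cycle factors E2F (0.24 ± 0.074, adjusted p = 0.0226, and 0.82 ± 0.074, adjusted p = 5.94e-07), and Cep152, a centriole duplication protein (0.52 ± 0.14, adjusted p = 0.0098, and 1.09 ± 0.14, adjusted p = 1.21e-05), each at 4 and then 4.5 weeks. Tfdp1 lost its call at 4 weeks without control or cKO library 2 or 3 of that time (highest adjusted p 0.123).

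Genes shared with primary cilia were described in the same way. Of 31 genes of intraflagellar transport, the cargo traffic of all cilia, none was higher and 15 were lower at 4.5 weeks (median -0.26), and 3 were higher and 7 lower at 4 weeks (median -0.11). The 48.4% lower at 4.5 weeks stand beside 32.6% of all genes, and the 22.6% lower at 4 weeks are near the 17.2% of all genes. Kifap3 and Kif3a encode parts of kinesin-2, which also carries cargo in axons. Kifap3 stood at 109, 116 and 126 CPM in cKO cords and at 254, 270 and 274 CPM in control cords at 4.5 weeks (-1.19 ± 0.066, adjusted p = 8.79e-09), and Kif3a at 69, 71.9 and 71 CPM in cKO cords and 143, 142 and 146 CPM in control cords (-1.03 ± 0.083, adjusted p = 2.3e-07). At 4 weeks Ift27 and Wdr35 were higher, by 0.63 ± 0.087 (adjusted p = 0.000136) and 0.47 ± 0.067 (adjusted p = 0.000159), and neither was called at 4.5 weeks. Of 42 genes of the primary cilium and its signalling, 9 were higher and 20 lower at 4.5 weeks (median -0.26), and 5 higher and 9 lower at 4 weeks (median -0.11). The 47.6% lower at 4.5 weeks stand beside 32.6% of all genes, and the 21.4% lower at 4 weeks are near the 17.2% of all genes. Ptch1, the Hedgehog receptor, fell by 1.05 ± 0.13 at 4 weeks (adjusted p = 6.35e-05), with 63.5, 41.6 and 47 CPM in cKO cords and 94.6, 104 and 117 CPM in control cords. Tctn1, of the transition zone, was higher then by 0.7 ± 0.088 (adjusted p = 6.69e-05), while Rpgrip1l, another transition zone gene, and Arl3 fell at 4.5 weeks by 1.06 ± 0.083 (adjusted p = 1.6e-07) and 0.7 ± 0.058 (adjusted p = 3.04e-07). The summed neuron markers, given above, moved in the same direction at 4.5 weeks, and their part was not tested.

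**Figure D4:**
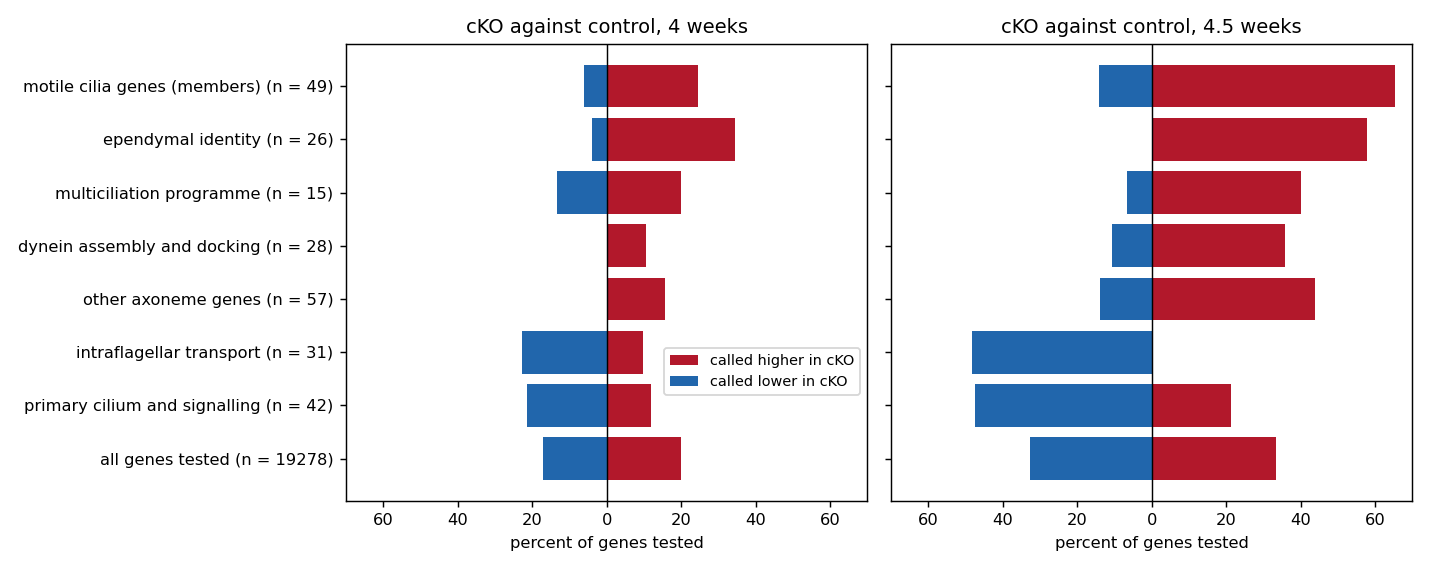
Share of tested genes called higher (red, right of 0) and lower (blue, left of 0) in cKO cords for the 49 motile cilia genes, 6 other gene lists and all genes tested, at 4 weeks (left panel) and 4.5 weeks (right panel). At 4.5 weeks 65.3% of the motile cilia genes were called higher and 48.4% of the intraflagellar transport genes lower, with 33.3% higher and 32.6% lower over all genes.

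Markers of ependymal cells were compared between cKO and control cords in the same way. Of 26 tested ependymal genes, which include Foxj1 and share Ak7, Enkur, Dynlrb2 and Fam183b with the lists above, 15 were higher and none lower at 4.5 weeks (median 0.77), and 9 were higher and 1 lower at 4 weeks (median 0.25). The shares called higher were 57.7% at 4.5 weeks, with 33.3% over all genes, and 34.6% at 4 weeks, with 20.1% over all genes. Ccdc153, an ependymal axoneme gene, held 2.51, 2.55 and 1.96 CPM in cKO cords and 2.94, 3.45 and 2.89 CPM in control cords at 4.5 weeks and was not called (-0.4 ± 0.27). Tmem212 held 1.12, 1.09 and 0.87 CPM in cKO cords and 0.452, 0.259 and 0.313 CPM in control cords then (1.58 ± 0.32, adjusted p = 0.000729), and the secreted protein gene Rarres2 16.2, 15.9 and 14.3 CPM in cKO cords and 8.26, 4.62 and 5.17 CPM in control cords (1.36 ± 0.18, adjusted p = 2.19e-05). Both were apart between the groups at 4.5 weeks, and Ccdc153 lay below the controls. The genes with the smallest p-values are not restricted to ependymal cells: Vim and Nes encode intermediate filaments of reactive astrocytes too and rose by 3.42 ± 0.28 (adjusted p = 2.32e-07) at 4.5 weeks and by 1.98 ± 0.22 (adjusted p = 2.57e-05) at 4 weeks, and Nnat rose by 1.61 ± 0.15 (adjusted p = 8.58e-07) at 4.5 weeks. Sox9, shared with astrocytes, was called at neither time (0.08 ± 0.097 at 4 weeks and 0.03 ± 0.096 at 4.5 weeks).

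Markers of the choroid plexus, another tissue with motile cilia, and of some other cells and tissues were looked at as well. The choroid plexus factor Otx2 had 0 counts in all 12 libraries, where the upper limit of 3 counts is 0.0923 CPM in the library with the highest limit, and transthyretin (Ttr), the leading transcript of that tissue, stayed at or below 0.538 CPM. The 10 choroid plexus markers summed to 12.5 to 15.7 CPM in cKO cords and 21.9 to 25.5 CPM in control cords at 4.5 weeks. The 15 astrocyte markers summed to 6720 to 7160 CPM in cKO cords and 9690 to 9890 CPM in control cords at 4.5 weeks, and the 6 markers of neurons that contact the cerebrospinal fluid to 53.2 to 57.9 CPM in cKO cords and 83 to 107 CPM in control cords. At 4.5 weeks, sensory ganglion and muscle markers reached at most 154 and 11.4 CPM in cKO cords, and 350 and 175 CPM in control cords. With control libraries 1 and 2 of that time left out together, only control library 3 of that time remained. The median log2 fold change of the 49 motile cilia genes at 4.5 weeks was then 0.61.

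Exon length moved with the fold changes over all genes, and the members are long: 19 of the 49 exceed 8 kb. At 4.5 weeks the median log2 fold change of all genes was 0.08 at 1 to 2 kb and -0.08 over 8 kb, and that of the members was 1.04 for the 5 of 1 to 2 kb and 0.76 for the 19 over 8 kb. At 4 weeks it was 0.14 and -0.13 for all genes, and 0.59 and 0 for the same 2 bins of members. With a trend in length removed from each library, 14 members were called at 4 weeks and 36 at 4.5 weeks, where 36.2% and 66.7% of all genes were. With a term for sex 9 were called at 4 weeks, where 23.6% of all genes were, and 38 at 4.5 weeks, where 65.5% were. The term rested on the cKO libraries of 4 weeks, the only group in which Xist differed. Every library of 4.5 weeks held Xist counts, so the term could do little to the comparison at 4.5 weeks. The calls of Cfap44, Cfap45, Cfap46, Cfap206, Rsph3b, Dnah8 and Dnah14 at 4 weeks were lost with that term, and Cfap53 gained one. Without control library 3 of 4 weeks 9 were called at 4 weeks, where 29% of all genes were.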

How the data were processed

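The authors deposited, for each time, a table of estimated counts per gene, neither scaled nor corrected for length. Per the submitters' processing notes the tools were STAR and RSEM, without versions, and the build was mm39. The annotation is not given in the sources used here. Per the labels' protocols, libraries were made from poly(A) RNA of spinal cord with a TruSeq kit and sequenced on an Illumina NovaSeq, and the 3 libraries of a group are biological replicates.

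The estimated counts were rounded and fitted in R 4.3.3 with edgeR 4.0.16: low-count filter with the 4 groups (19278 genes), trimmed-mean scaling, 1 model of 12 libraries, quasi-likelihood tests of 5 contrasts, adjustment over all genes. CPM use the scaled library sizes. No pair of libraries agreed within sampling noise. Counts limit the precision of genes near 0.5 CPM.

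The members and lists were chosen with earlier results of these data known. Named members are the regulators, the called genes with the smallest p in each role and contrast (and the 1 of opposite direction), the 2 with the highest level per role, and those next to the threshold. From other lists the 2 called genes with the smallest p were named, of which 1 is not reported here. Hydin, Ccdc39, Cfap206, Cfap45, Cfap53, Dnah3, Dnah6, Dnah12, Rsph1, Gmnc, Deup1, Ccno, Ccdc153, Tmem212, Rarres2, Sox9, Ttr and Otx2 were named after their values were seen. Alternatives were other scalings (DESeq2 size factors, upper quartile), tests with DESeq2 1.42.0 and limma 3.58.1, no filter or a stricter one, a robust spread, a replicate block, each time alone, a sex term from Xist, a length trend, and libraries left out.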

Additional observations from a re-analysis of the deposited data

Results flagged for a closer look

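The cKO effect at 4.5 weeks minus that at 4 weeks was called by edgeR's quasi-likelihood test in 13 motile cilia genes. This is 26.5% of the 49, below the 40.7% of all genes called in that comparison. On the log2 scale the difference was 1.74 for Dnah10, 1.58 for Tekt4, 1.42 for Cfap43, 0.97 for Cfap54, 0.97 for Dnah12, 0.84 for Dnah11, 0.83 for Cfap65, 0.77 for Dnah6, 0.72 for Rsph4a, 0.67 for Rfx2 and 0.62 for Rfx3. It was -0.87 for Foxj1 and -0.33 for Cfap36. The adjusted p was highest for Dnah12 (0.0488), Dnah6 (0.0448) and Rfx2 (0.0437).

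Genes of the other lists named above also differed between the times. The difference was above 0 for the ependymal list genes Nnat (1.51) and Vim (1.15), the dynein assembly factor Dnaaf3 (0.95), the spoke base gene Wdr66 (0.84), and Tfdp1 (0.58), Cep152 (0.57) and Rfx1 (0.54) of the multiciliation list. It was below 0 for Tekt5 (-1.51) of the axoneme, for Kifap3 (-0.9), Ift27 (-0.77), Kif3a (-0.75) and Wdr35 (-0.55) of intraflagellar transport, and for Rpgrip1l (-0.78) and Arl3 (-0.67) of the primary cilium.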

How the results depend on the processing

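No called log2 fold change of a member changed sign under any alternative run, while among those not called 14 of 34 at 4 weeks, 4 of 10 at 4.5 weeks and 9 of 36 of the difference did, and 6 of 15 calls at 4 weeks, 27 of 39 at 4.5 weeks and 5 of 13 of the difference were kept under all of them. With each library left out in turn, 9 to 15 members were called at 4 weeks (9 without control library 3 of 4 weeks), 32 to 38 at 4.5 weeks, 8 to 13 for the difference, 16 to 24 between the cKO groups and 0 to 4 between the control groups. The shares of all genes called in these runs were, in the same order, 27.7% to 39.1%, 59.7% to 65.6%, 35.4% to 39.1%, 48.9% to 55.3% and 6.66% to 19.1%. With a sex term the counts were 9 at 4 weeks, 6 for the difference and 0 between the control groups, where 23.6%, 32% and 0% of all genes were called. With no low-count filter 8 were called for the difference, where 23.5% of all genes were. Between the control groups 0 were called with the length trend removed, where 8.01% of all genes were. The cause of these changes was not tested.

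A replicate block, from numbers that only name samples (same-number correlations of -0.25 to 0.0122 at 4 weeks and -0.0212 to 0.0866 at 4.5 weeks), gave 13 calls at 4 weeks, 39 at 4.5 weeks and 12 for the difference, 24 between the cKO groups and 2 between the control groups. Over all genes the block called 35.3%, 64.6%, 39%, 54.5% and 14.5%, in the same order. Each time fitted alone gave 14 and 37, where 33.3% and 68.6% of all genes were called. The Spag6l line left out, an alternative chosen after seeing the data, changed no count. Leaving out Dnah17, Cfap53 and Cfap77, also chosen after seeing the data, gave 14, 38 and 13 calls at 4 weeks, at 4.5 weeks and for the difference. Counting the 16 genes under older names as a list of their own was also chosen then. At depths of 33104560 to 47677267 counts, the log2 fold changes of low genes are imprecise: that of Spag6 had standard errors of 0.61 at 4 weeks and 0.65 at 4.5 weeks.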
